A study of Mus musculus with 12 samples.

Results

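Endocytosis and sorting genes were compared in bone-marrow-derived macrophages, that is, marrow cells grown to day 9 in culture with CSF-1 from L-cell medium. The list holds 40 genes for the clathrin coat, the AP-2 adaptor, early endosome proteins and the ESCRT machinery, chosen by name and matched by symbol. Of these, 39 were found among the 15555 genes of the count table, and all 39 passed the filter on low counts and were tested among 12671 genes. Vps28, a subunit of ESCRT-I, is not analysed here.

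Read counts came from 12 libraries. There were 3 of wild type (WT), 3 of Cbl-/- and 3 of Cbl-b-/-, and 3 labelled as lacking Cbl and Cbl-b together (DKO, double knockout). The labels give no strain, no sex and no treatment beyond the CSF-1 that all cultures received, and do not say how either gene was disrupted. Nothing says that libraries of 1 genotype came from separate animals, and RNA was pooled in some unspecified way, so the p-values rest on a spread between libraries that may be only technical. Total counts were 21048103 to 43946503 per library, and the lowest count of any member in any library was 552.

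Cbl and Cbl-b are ubiquitin ligases that bind activated receptor tyrosine kinases such as the macrophage receptor for CSF-1. Ubiquitin placed on such a receptor is read by adaptors with ubiquitin-binding domains, first in clathrin-coated pits (EPS15 and epsin) and then on the early endosome, where ESCRT-0, ESCRT-I and ESCRT-II pass the receptor on and ESCRT-III filaments pinch it into vesicles inside the endosome. The ATPase VPS4 takes the filaments apart, and the late endosome then delivers the vesicles to lysosomes. The comparison asked whether the genes for this machinery are transcribed at other levels when either ligase, or both, is missing.

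The labels were checked first. The level of Cbl in CPM (read counts scaled to library size) was 140 ± 3.4 (SD, n = 3) in WT and 139 ± 3.0 in Cbl-b-/-, against 51.5 ± 2.3 in Cbl-/- and 37.6 ± 3.1 in DKO. Cblb was at 59.4 ± 3.5 CPM in WT and 68.5 ± 0.69 in Cbl-/-, against 52.8 ± 2.9 in Cbl-b-/- and 71.7 ± 3.2 in DKO. Its counts therefore do not show the loss of Cbl-b that the labels Cbl-b-/- and DKO name. For Cbl-b, directions drawn from those libraries rest on the labels alone. The low Cbl counts in DKO go with the Cbl part of that label. Summed markers of macrophages were 16982 to 22741 CPM in all 12 libraries, whereas those of T or NK cells, B cells and erythroid cells were near 0, with no library above 1.01 CPM for any of these lists. Monocyte markers (5 of 5 in the table) summed to 55.3 to 59.4 CPM in WT and 140 to 188 in DKO, with 81.8 to 91.9 in Cbl-/- and 76.5 to 84.6 in Cbl-b-/- between them, and the 3 of 8 granulocyte markers in the table to 2.21 to 3.05 CPM in WT and 48.1 to 73.1 in DKO. The dendritic cell list (4 of 5 in the table) summed to 15.8 to 19.1 CPM in WT and 29.2 to 31.8 in DKO, the stromal or endothelial list (4 of 6) to 3.39 to 5.61 and 12.3 to 15.8, and the 1 mast cell or basophil marker of 5 in the table, Kit, to 0.308 to 0.50 and 1.45 to 1.90. Most of the dendritic cell sum was 1 gene, Itgax, at 15.2 to 18.6 CPM in WT and 27.7 to 29.7 in DKO. Most of the macrophage sum was Lyz2, at 11915 to 17323 CPM over the 12 libraries. The macrophage markers moved in both directions between the libraries labelled DKO and WT. Csf1r, the gene of the CSF-1 receptor (-0.37 on the log2 scale), Adgre1 (-0.37) and Mertk (-1.21) were lower, Fcgr1 (0.82) was higher, and Itgam (-0.02), Cd68 (-0.14) and Lyz2 (-0.15) were not called. Fewer cells of a type and less RNA per cell cannot be told apart in such bulk samples, and the part of these shifts in the results was not tested.

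Of the 9 members that differed between the libraries labelled DKO and WT, 6 kept the call in at least 15 of 16 alternative analyses, and sequence upstream of the start site is shown for the 4 of these with a usable RefSeq window. Chmp4b, an ESCRT-III filament gene, and Ap2m1, the cargo-binding subunit of AP-2, were higher, and Epn1 (epsin 1) and Picalm (the clathrin assembly protein CALM) were lower. Each sequence below is from RefSeq on GRCm38.p6, reads 5′ to 3′ along the + strand and ends 10 bases before the annotated start. Capitals mark letters of 3 motifs found on either strand: the GC box GGGCGG, the E-box CACGTG and the NRF1 motif, GCGC and TGCGC separated by any base.
Chmp4b chr2:154656776-154657015: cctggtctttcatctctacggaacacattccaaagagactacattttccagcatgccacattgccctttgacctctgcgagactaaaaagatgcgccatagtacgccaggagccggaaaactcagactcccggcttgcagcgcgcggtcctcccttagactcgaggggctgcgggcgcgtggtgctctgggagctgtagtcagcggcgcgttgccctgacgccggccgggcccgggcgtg
Ap2m1 chr16:20535230-20535469: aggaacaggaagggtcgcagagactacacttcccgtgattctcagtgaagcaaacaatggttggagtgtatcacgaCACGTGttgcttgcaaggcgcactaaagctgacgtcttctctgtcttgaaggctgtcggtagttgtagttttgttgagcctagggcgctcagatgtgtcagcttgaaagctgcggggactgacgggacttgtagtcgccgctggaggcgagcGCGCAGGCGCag
Epn1 chr7:5079985-5080224: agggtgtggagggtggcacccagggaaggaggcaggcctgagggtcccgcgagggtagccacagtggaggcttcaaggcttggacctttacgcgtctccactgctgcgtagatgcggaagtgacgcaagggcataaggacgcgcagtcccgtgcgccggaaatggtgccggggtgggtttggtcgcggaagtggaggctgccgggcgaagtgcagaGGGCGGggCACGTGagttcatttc
Picalm chr7:90129963-90130202: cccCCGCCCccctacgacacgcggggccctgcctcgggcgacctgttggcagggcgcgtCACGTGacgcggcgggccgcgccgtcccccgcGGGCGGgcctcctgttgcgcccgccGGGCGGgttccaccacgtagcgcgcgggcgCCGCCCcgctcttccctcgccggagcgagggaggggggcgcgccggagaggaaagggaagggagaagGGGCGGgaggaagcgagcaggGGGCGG
The windows are 240 bases long. The Chmp4b window lies inside the GENCODE gene, 5.32 kb after its first annotated base, and has no match to the 3 motifs. Picalm and Epn1 have GC boxes and an E-box, and Ap2m1 has an E-box and an NRF1 match.

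Upstream windows were available for 35 members, and 34 lay within 10 kb of the GENCODE start and were searched. The GC box was found in 19 of the 34 windows (55.9%) and in 31.3% of 32851 windows of the same length over all genes. The 2 sets are not alike. Only the most upstream start of each member was used, whereas every listed window counted over all genes, with no limit on distance or expression. The part of this in the differences below was not tested. The E-box was in 5 (14.7% against 5.69%), the NRF1 motif in 5 (14.7% against 3.35%), the cyclic AMP response element TGACGTCA in 3 (8.82% against 1.44%) and the ETS motif CCGGAAG in 3 (8.82% against 6.20%). The CCAAT box was in 11 (32.4% against 33.0%). The interferon-stimulated response element, GAAA repeated after any 2 bases, was in 0 of the 34 and in 2.87% of all windows, which says only that these letters are not in the windows searched. Overlapping matches were counted for each motif, and a match is not a bound site.

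In WT macrophages the members were well expressed, with a median of 98.3 CPM against 25.8 over all genes tested. Together they made up 0.621% to 0.655% of the scaled counts in each of the 12 libraries. Per kilobase of exon, the scale on which genes can be compared with each other, Clta, the main clathrin light chain, stood first at 244 ± 9.7 CPM per kb (SD, n = 3). It was followed by the GTPases Rab7 of late endosomes (208 ± 3.1) and Rab5c of early endosomes (151 ± 6.4), the small AP-2 subunit Ap2s1 (123 ± 1.0) and the clathrin heavy chain Cltc (91.8 ± 2.1). The WT libraries of Ap2m1 (88.9 ± 4.7) overlapped those of Cltc and of Chmp4b (87.7 ± 2.4), while all 3 values of Cltc lay above all 3 of Chmp4b. The lowest were Stam (3.60 ± 0.15), an ESCRT-0 subunit, and Stambp (2.36 ± 0.087), the deubiquitinase AMSH. Exon lengths join all annotated isoforms, which understates the level per kb of genes with long rare exons such as Picalm (15.73 kb).

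The order of the members per kb hardly differed between genotypes. No member moved more than 6 places from its rank in WT, and Eps15 (22 to 28) and Snf8 (31 to 25), both in the libraries labelled DKO, moved farthest.

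**Figure D1:**
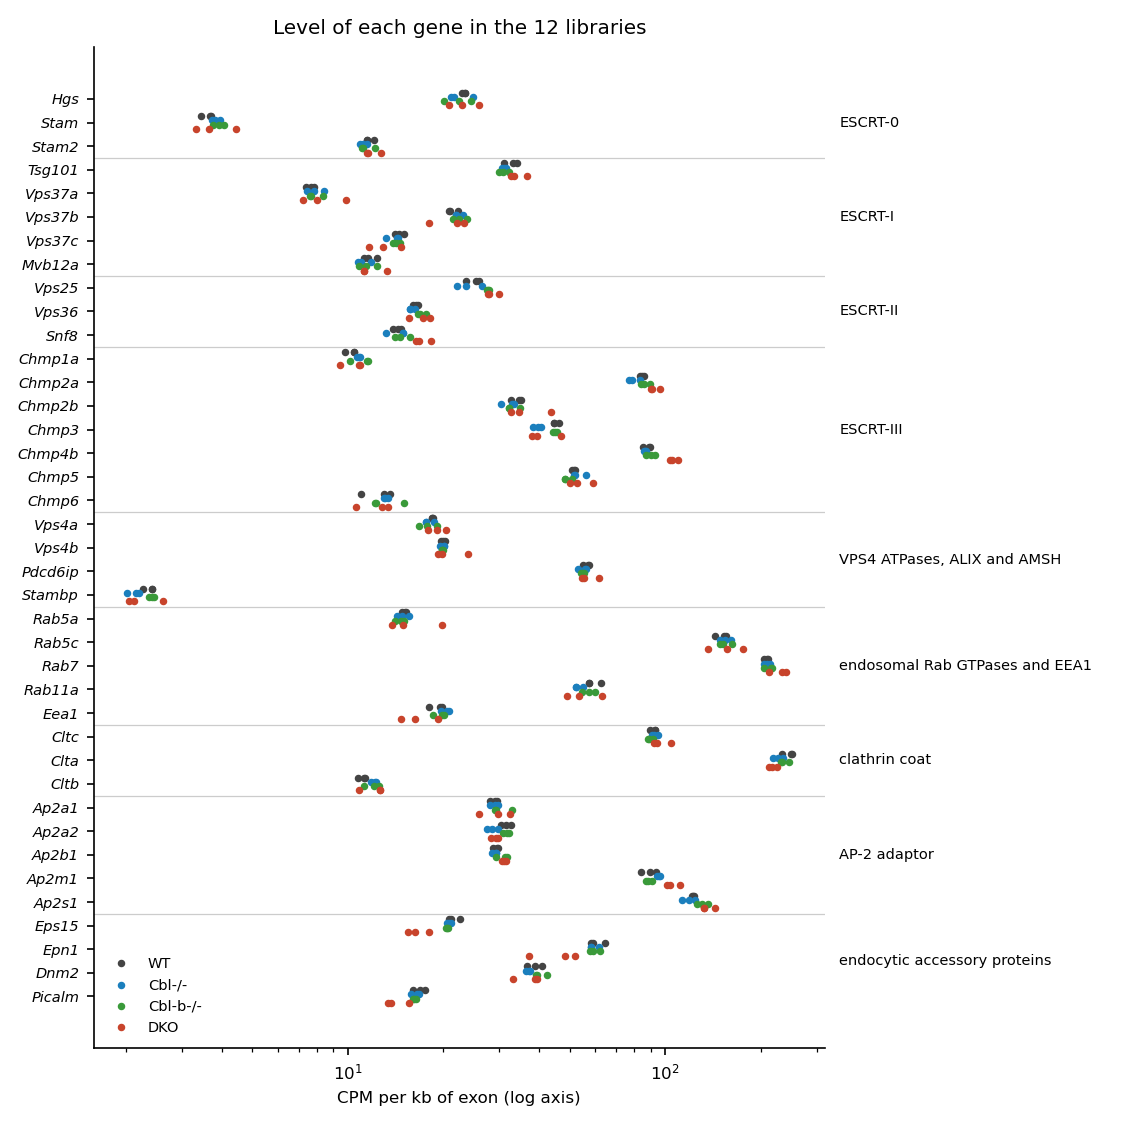
Level of each of the 39 members in CPM per kb of exon (log axis) in the 12 libraries, 1 point per library, coloured by genotype and grouped by role. For most genes the 4 colours lie on top of each other, while the DKO points of Eps15, Epn1 and Picalm lie to the left and those of Chmp4b, Snf8 and Ap2m1 to the right.

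Close copies on the list were at unequal levels per kb in some families and at near equal levels in others. These shares depend on joined exon lengths, which differ between copies, as with Vps4b (8.905 kb) and Vps4a (2.522 kb). In CPM, without length, Vps4b was at 178 and Vps4a at 46.5 in WT. Per kb, Clta gave 95.6% ± 0.25 (SD, n = 3) of light chain and Cltb 4.36% ± 0.25 in WT. In WT the Cltb share was 4.15% to 4.63% and in Cbl-b-/- 4.62% to 5.08%, whereas Cbl-/- had 4.92% to 5.32% and DKO 4.85% to 5.50%. The Cbl-/- and DKO libraries thus lay above all WT libraries in this share, and the lowest Cbl-b-/- library lay at the level of the highest in WT. Rab5c gave 90.9% of the Rab5a and Rab5c level in WT, Stam2 76.4% of the Stam pair, Chmp2a 71.3% of the Chmp2 pair, Vps4b 52.0% of the Vps4 pair and Ap2a2 52.1% of the α subunits of AP-2. Among the ESCRT-I subunits Vps37a, Vps37b and Vps37c the shares were 17.5%, 49.0% and 33.5%. The Vps37c share in WT (33.2% to 33.7%) lay above every Cbl-/- (29.5% to 32.8%), Cbl-b-/- (31.8% to 32.0%) and DKO library (29.5% to 32.7%). In Cbl-/- the shares of Stam (25.0% to 25.9%) and Vps37b (49.7% to 51.6%) lay above WT (23.1% to 24.3% and 48.2% to 49.5%). That of Ap2a2 in Cbl-/- (48.0% to 50.6%) lay below WT (51.5% to 52.9%). None of the shares was tested. In DKO the mean shares of Rab5c, Stam2, Chmp2a, Vps4b and Ap2a2 were 90.4%, 75.9%, 71.4%, 52.2% and 49.9%. Reads of near-identical copies could be split between genes, because no source used here says how reads with several matches were handled, and Tsg101, Stambp, Rab5a and Rab7 have annotated pseudogenes.

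In Cbl-/- macrophages no member was called against WT in the main fit. With edgeR's quasi-likelihood test 0 of 39 passed, beside 9.87% of all genes tested (5.68% higher and 4.19% lower). The log2 fold changes ran from -0.19 to 0.12, and their 95% intervals from -0.34 to 0.28, so none of the intervals reached a 1.41-fold change in either direction. The median absolute log2 fold change was 0.05 among members and 0.12 over all genes, with a median SE of 0.07 and 0.09. At an unadjusted p under 0.05 there were 2 members.

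The first of these was Chmp3, an ESCRT-III subunit, at 150, 145 and 144 CPM in WT and 132, 129 and 124 in Cbl-/-. The 2 groups did not overlap, and the log2 fold change was -0.19 (SE 0.07, adjusted p = 0.092). The other was Ap2a2, an α subunit of AP-2, at 178, 185 and 172 CPM in WT and 162, 155 and 168 in Cbl-/- (log2 fold change -0.14, SE 0.05, adjusted p = 0.115). Its groups did not overlap either. In all, 9 of the 39 members had no overlap between the 3 Cbl-/- and the 3 WT libraries, against 37.6% of all genes. Beside Chmp3 and Ap2a2 these were Chmp2a, Rab11a and Stambp, lower, and Stam, Chmp1a, Cltb and Ap2m1, higher. When a correction for the GC content of transcripts was added to each library, Chmp3 and Rab11a were called lower in Cbl-/-, which made 2 of 39 beside 15.4% of all genes. In a fit of Cbl-/- and WT alone 4 members were called (10.3%), 1 higher and 3 lower, beside 22.5% of all genes in that fit.

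The libraries labelled Cbl-b-/- had 0 of 39 members past the threshold, beside 0.489% of all genes (0.395% higher and 0.0947% lower). Log2 fold changes lay between -0.08 and 0.15, and 95% intervals between -0.25 and 0.31. Only Vps25, an ESCRT-II subunit, had an unadjusted p under 0.05. It was at 42.5, 38.6 and 41.7 CPM in WT and 45.7, 45.1 and 45.3 in Cbl-b-/-. The 2 groups did not overlap, and the difference was 0.15 on the log2 scale (SE 0.07, adjusted p = 0.66). Ap2s1, with the next smallest p, was at 181, 182 and 179 CPM in WT and at 186, 192 and 201 in Cbl-b-/- (0.09, SE 0.06, adjusted p = 0.79), again with no overlap. Of the 39 members, 6 had no overlap between these groups, against 15.1% of all genes.

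Between the libraries labelled DKO and WT 9 of 39 members differed (23.1%), 5 higher and 4 lower, beside 35.4% of all genes tested, 19.1% higher and 16.3% lower. The higher genes were the ESCRT-II subunits Snf8 and Vps25, the ESCRT-III subunit Chmp4b and the AP-2 subunits Ap2m1 and Ap2s1. The lower genes were the accessory proteins Eps15, Epn1 and Picalm and the clathrin light chain Clta. The median log2 fold change of the members was 0.05 against 0.00 over all genes, and -0.02 against -0.07 with total counts for scaling. All changes were small: the members ran from -0.41 to 0.28 on the log2 scale, no member reached 0.5 (a 1.41-fold change), and 19.4% of all genes did. The median absolute log2 fold change was 0.10 among members and 0.20 over all genes, and among called genes 0.24 and 0.40. The median SE was 0.07 among members and 0.09 over all genes. Members also had higher levels, with a median of 98.3 CPM in WT against 25.8, and the part of this in the smaller changes was not tested.

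**Figure D2:**
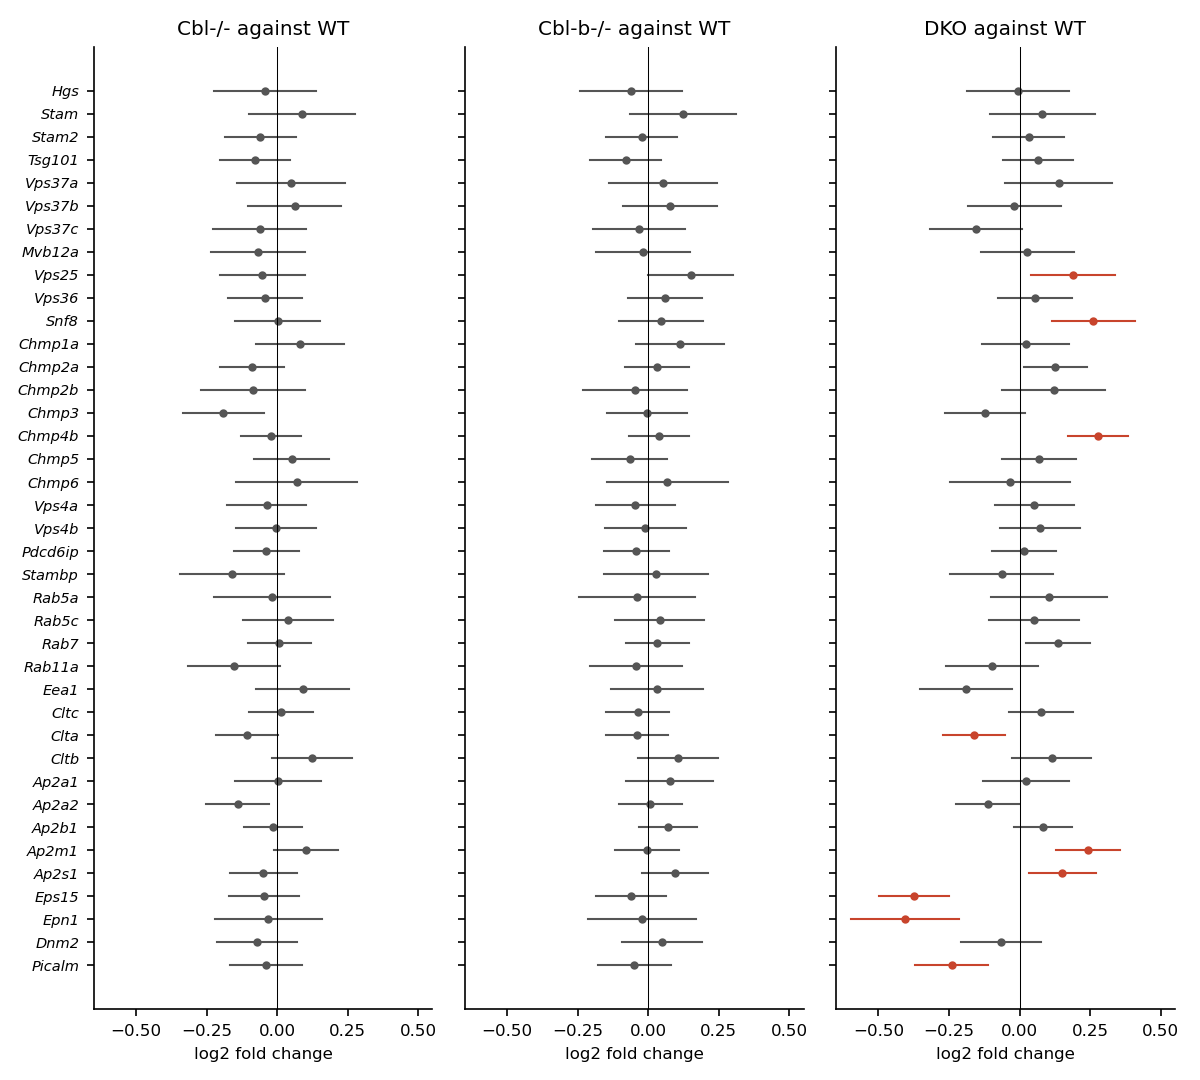
Log2 fold change of each member against WT, with its 95% interval from edgeR's quasi-likelihood fit, in Cbl-/-, Cbl-b-/- and DKO. Red marks an adjusted p under 0.05; there are 0, 0 and 9 red genes, and the 3 accessory proteins Eps15, Epn1 and Picalm are the leftmost of the third panel.

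**Figure D3:**
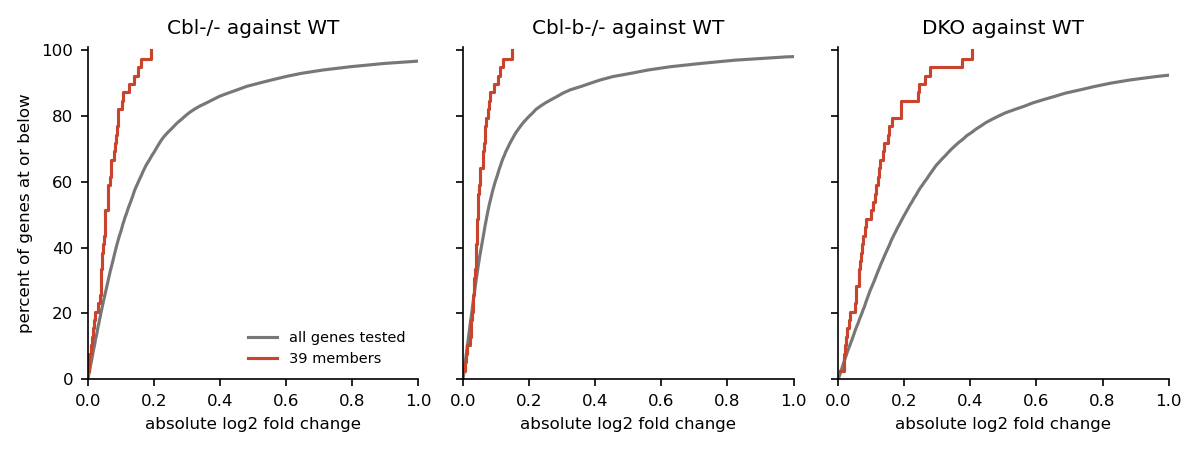
Cumulative share of genes (percent) against the absolute log2 fold change, for the 39 members (red steps) and all genes tested (grey). In Cbl-/-, Cbl-b-/- and DKO against WT the medians were 0.05, 0.04 and 0.10 for the members, beside 0.12, 0.07 and 0.20 for all genes. The members had a higher median level than all genes, and the part of this was not tested.

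Among the accessory proteins of coated pits, 3 of 4 were lower, beside 16.3% of all genes tested. This role and those below hold few genes each, and calls by role were not tested against the share of all genes. Eps15 (chromosome 4, 109280268 to 109387817), a scaffold of the pit rim that binds ubiquitin and AP-2, was at 144, 156 and 146 CPM in WT and at 113, 107 and 125 in DKO, with 142, 146 and 144 in Cbl-/- and 144, 142 and 142 in Cbl-b-/-. All 3 DKO libraries lay below all other 9, which spanned 142 to 156 CPM. Against WT this was a change of -0.37 on the log2 scale (SE 0.06, adjusted p = 1.1e-04).

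Epn1 (chromosome 7, 5080235 to 5098178) encodes epsin 1, which bends the membrane and also carries ubiquitin-binding motifs. It was at 166, 181 and 164 CPM in WT and at 136, 146 and 104 in DKO, where the third library was the lowest of all 12. Cbl-/- had 164, 164 and 174 CPM and Cbl-b-/- 166, 163 and 174. The DKO and WT groups did not overlap, and the log2 fold change was -0.41 (SE 0.09, adjusted p = 0.0022). Its size rested in part on that library, since it was -0.27 without DKO 3 and -0.24 with the correction for GC content, and it passed in both.

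Picalm (chromosome 7, 90130213 to 90213465), which recruits clathrin and sorts vesicle SNAREs, was at 274, 266 and 252 CPM in WT and at 215, 210 and 246 in DKO, with 259, 263 and 249 in Cbl-/- and 255, 257 and 253 in Cbl-b-/-. The DKO and WT groups did not overlap, with DKO 3 close to the lowest WT library (log2 fold change -0.24, SE 0.06, adjusted p = 0.0057). With only DKO and WT in the fit Picalm no longer passed (adjusted p = 0.051). Dnm2, the dynamin that cuts vesicles from the membrane, had a log2 fold change of -0.06 and was not called. Summed over the 4 accessory proteins, the level was 651 to 674 CPM in DKO, against 757 to 822 in WT, 763 to 767 in Cbl-/- and 772 to 794 in Cbl-b-/-.

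Of the 3 clathrin coat genes 1 was lower, beside 16.3% of all genes, and 2 were not called. Clta (chromosome 4, 44004452 to 44032846) was at 448, 450 and 419 CPM in WT and at 390, 406 and 382 in DKO, with no overlap (log2 fold change -0.16, SE 0.05, adjusted p = 0.024). Its call was lost without WT 1, WT 2 or DKO 1, and with only DKO and WT in the fit (adjusted p at most 0.095). The heavy chain Cltc (0.08) and the light chain Cltb (0.11) were not called.

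Of the 5 AP-2 subunits 2 were higher, beside 19.1% of all genes, and 3 were not called. Ap2m1 (chromosome 16, 20535478 to 20544909), the µ subunit that binds tyrosine-based sorting signals, was at 369, 384 and 346 CPM in WT, 397, 395 and 389 in Cbl-/-, 358, 374 and 365 in Cbl-b-/- and 425, 459 and 418 in DKO. The DKO libraries lay above all other 9, with a change against WT of 0.24 on the log2 scale (SE 0.05, adjusted p = 0.0021). It lies 31.49 Mb from Cblb on the same chromosome, where Chmp2b, not called, lies nearer at 13.33 Mb. On the chromosome of Cbl lie Rab11a, Dnm2 and Pdcd6ip, at 20.48, 22.64 and 69.42 Mb from it, not called between DKO and WT. The part of such linkage was not tested.

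Ap2s1 (chromosome 7, 16738410 to 16749294) was at 181, 182 and 179 CPM in WT and at 195, 211 and 195 in DKO (0.15, SE 0.06, adjusted p = 0.043). In Cbl-/- it was at 166, 183 and 175. The DKO and WT groups did not overlap, but the call was lost without WT 1, WT 2, WT 3 or DKO 2, without the filter on low counts, with total counts for scaling and with only DKO and WT in the fit (adjusted p up to 0.29). Ap2a1 (0.02), Ap2a2 (-0.11) and Ap2b1 (0.08) did not pass. The AP-2 genes summed to 1153 to 1250 CPM in DKO, above the ranges of WT (1068 to 1134) and Cbl-/- (1102 to 1117), while the range of Cbl-b-/- (1100 to 1163) overlapped that of DKO.

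**Figure D4:**
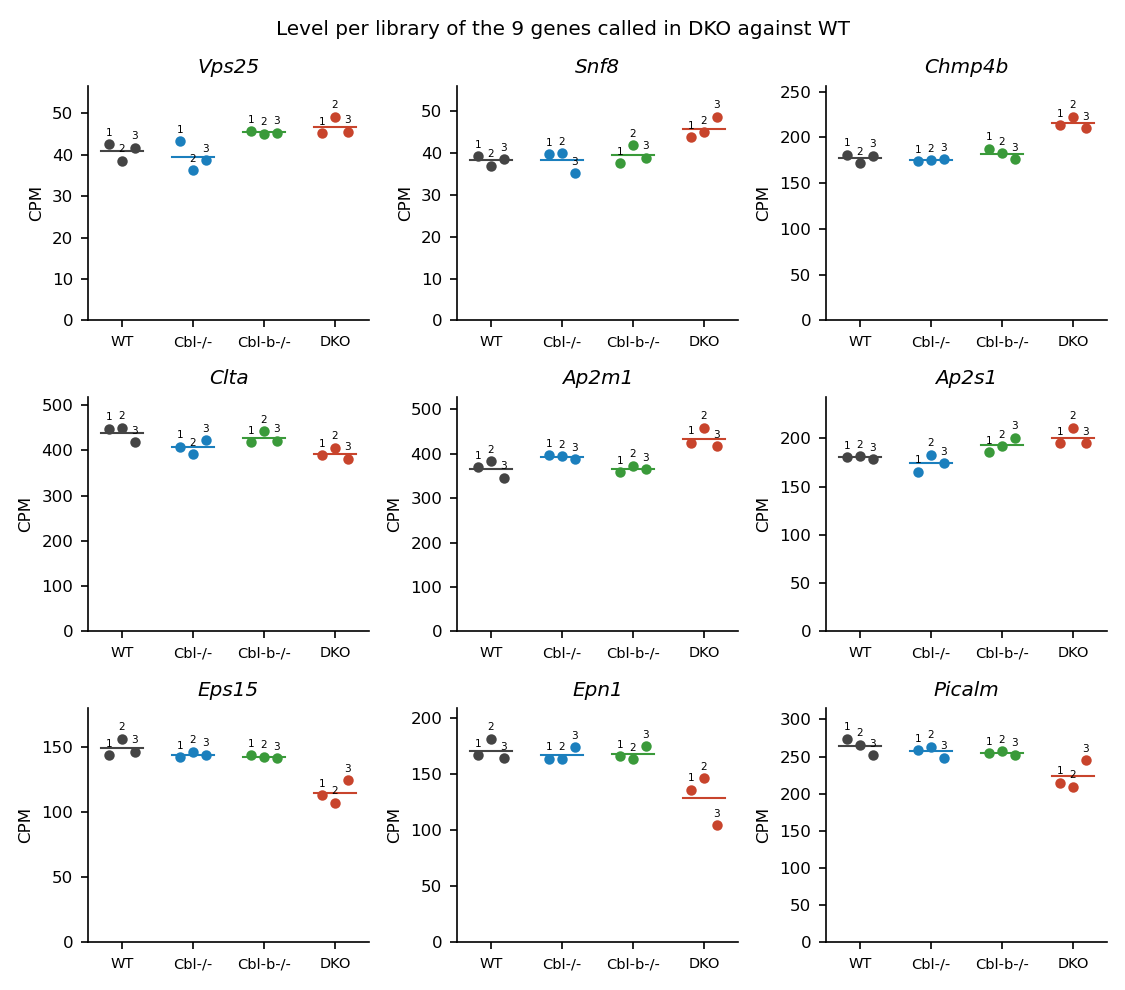
Level in CPM of the 9 members called between the libraries labelled DKO and WT, 1 panel per gene with its axis from 0, 1 point per library numbered by replicate and a line at each group mean. Eps15 at 107 to 125 CPM in DKO lies below every other library, and Chmp4b at 210 to 223 lies above every other library.

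In ESCRT-II, the complex that links ESCRT-I to ESCRT-III, 2 of 3 genes were higher, beside 19.1% of all genes. Snf8 (chromosome 11, 96034885 to 96047430) was at 39.2, 37.0 and 38.6 CPM in WT and at 43.9, 45.0 and 48.8 in DKO, with 39.8, 40.03 and 35.3 in Cbl-/- and 37.6, 41.9 and 38.96 in Cbl-b-/-. All 3 DKO libraries were above the other 9, of which the highest was Cbl-b-/- 2 at 41.9. The difference from WT was 0.26 on the log2 scale (SE 0.07, adjusted p = 0.0080).

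Vps25 (chromosome 11, 101253707 to 101259549) was at 42.5, 38.6 and 41.7 CPM in WT and at 45.3, 49.2 and 45.6 in DKO, with 43.3, 36.2 and 38.7 in Cbl-/-. The DKO and WT groups did not overlap (0.19, SE 0.07, adjusted p = 0.045), yet the DKO levels lay close to the 45.1 to 45.7 CPM of Cbl-b-/-. Its call was lost in 9 of 16 alternatives, among them without WT 1, WT 2, WT 3, DKO 1 or DKO 2, with the replicate block and with total counts for scaling (adjusted p up to 0.21). Vps25 overlaps Ramp2 on the same strand. Vps36 (0.05) was not called. The 3 ESCRT-II genes summed to 152 to 162 CPM in DKO, against 137 to 141 in WT, 134 to 141 in Cbl-/- and 145 to 150 in Cbl-b-/-.

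In ESCRT-III 1 of 7 genes was higher, beside 19.1% of all genes, and 6 were not called. Chmp4b (chromosome 2, 154651705 to 154694785), the main building block of the filament, was at 181, 172 and 180 CPM in WT, 174, 175 and 176 in Cbl-/-, 188, 183 and 177 in Cbl-b-/- and 214, 223 and 210 in DKO. The DKO libraries were above all other 9, and the difference from WT was 0.28 on the log2 scale (SE 0.05, adjusted p = 3.8e-04). The filament subunits Chmp2a (0.13), Chmp2b (0.12), Chmp3 (-0.12), Chmp1a (0.02), Chmp5 (0.07) and Chmp6 (-0.03) did not pass.

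In the remaining roles none passed against WT, beside 35.4% of all genes. The ESCRT-0 genes Hgs (-0.01), Stam (0.08) and Stam2 (0.03), which first hold ubiquitinated cargo on the endosome, had 0 of 3 called. Among ESCRT-I genes, Tsg101 (0.06), Vps37a (0.14), Vps37b (-0.02), Vps37c (-0.15) and Mvb12a (0.03), 0 of 5 were called. The ATPases Vps4a (0.05) and Vps4b (0.07), the ESCRT-III partner ALIX, encoded by Pdcd6ip (0.02), and the deubiquitinase Stambp (-0.06) were not called. Of the endosomal Rab genes and their effector, Rab5a (0.11), Rab5c (0.05), Rab7 (0.14, adjusted p = 0.059), Rab11a (-0.10) of recycling endosomes and Eea1 (-0.19, adjusted p = 0.069), the tether of early endosomes, 0 of 5 passed.

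Without overlap between the 3 DKO and 3 WT libraries were 13 of 39 members, against 46.5% of all genes. These were the 9 called members with Chmp2a, Rab7, Ap2a2 and Ap2b1.

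The third DKO library stood apart from its partners, in these genes as over all genes tested. It lay outside the range of DKO 1 and DKO 2 in 36 of 39 members, above both in 19 and below both in 17. That count was not made over all genes. The distance from the mean of both was at least 0.2 on the log2 scale in 21 of 39 members and in 6460 of 12619 genes. The median absolute distance was 0.202 among members and 0.205 over all genes. Its deviation went with the base composition of the transcript: all 13 members of the lowest GC content (39.5% to 45.4%) were above the mean of DKO 1 and DKO 2, and 0 of the 13 of the highest (54.5% to 62.5%) were. Pearson's r with GC content was -0.911 over 39 members and -0.503 over 12619 genes, as a description across genes that share the same 3 libraries. Among the members the median coefficient of variation was 8.55% in DKO and 3.05% to 3.51% in the other genotypes, beside 10.3% and 4.98% to 7.14% over all genes. The log2 fold changes between DKO and WT had r = -0.061 with GC content among the members and -0.122 over 12641 genes. Between DKO and Cbl-b-/- these values were -0.187 and -0.115, and between DKO and Cbl-/- they were -0.081 and -0.080.

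**Figure D5:**
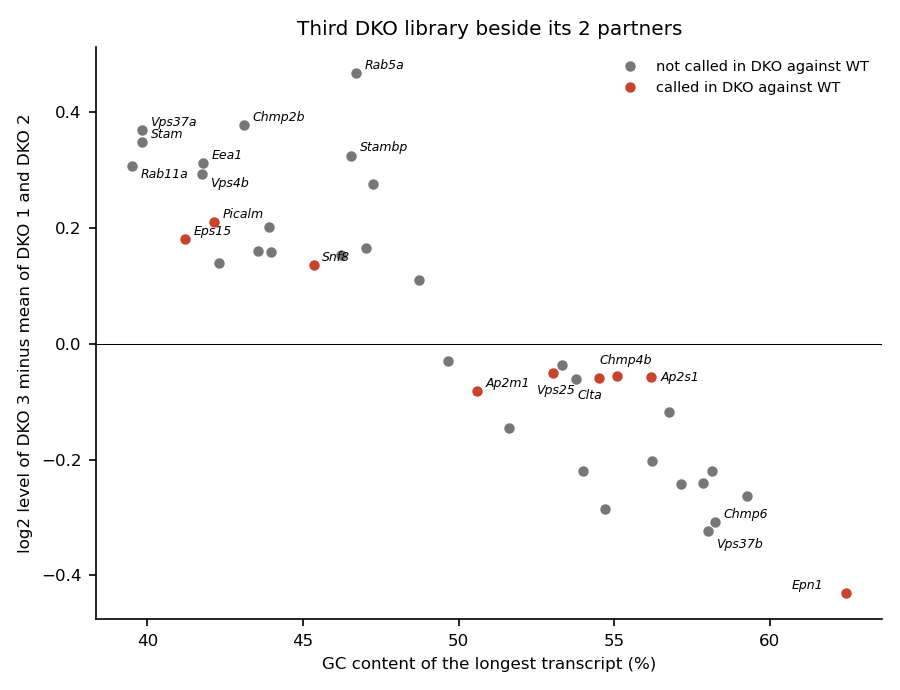
Log2 level of DKO 3 minus the mean of DKO 1 and DKO 2 (vertical) against the GC content of the longest transcript in percent (horizontal) for the 39 members, with the 9 members called against WT in red. The points fall from Rab5a, Chmp2b and Vps37a at the upper left to Epn1 at the lower right.

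Leaving out DKO 3 raised the count to 15 of 39 members (38.5%, with 37.4% of all genes), 8 higher and 7 lower, and all 9 were among them. The 6 added were Chmp2a (0.14, adjusted p = 0.029), Rab5c (0.14, adjusted p = 0.043) and Cltb (0.19, adjusted p = 0.0093), higher, and Chmp3 (-0.22, adjusted p = 5.7e-04), Rab11a (-0.21, adjusted p = 0.0049) and Eea1 (-0.30, adjusted p = 1.8e-04), lower. With a GC correction for each library, chosen after the data were seen, 16 members were called (41.0%, with 42.6% of all genes), 9 higher and 7 lower. These held all 9 as well, with Chmp2a, Chmp3, Rab11a, Eea1 and Cltb again and Rab7 (0.12) and Ap2a1 (0.13). The 4 lower accessory and coat genes stayed on the same side in both, with Eps15 at -0.44 and -0.47, Picalm at -0.31 and -0.34 and Clta at -0.14 and -0.13. Scaling by total counts, which moved the median of all genes in DKO against WT to -0.07, gave 11 called members, 3 higher and 8 lower (28.2%, with 36.7% of all genes), where the main scaling gave 5 and 4, and turned the share of higher genes among all called from 54.0% to 38.2%. No called member changed sign under it, but Vps25 and Ap2s1 lost their calls and Vps37c, Chmp3, Eea1 and Ap2a2 gained lower ones.

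Set against Cbl-/-, the libraries labelled DKO differed in 9 of 39 members, 5 higher and 4 lower, beside 29.6% of all genes (16% higher and 13.6% lower). Chmp4b (0.30, adjusted p = 2.6e-04), Snf8 (0.26), Vps25 (0.24) and Ap2s1 (0.20) were higher, as against WT, and Eps15 (-0.33, adjusted p = 4.9e-04), Epn1 (-0.37) and Picalm (-0.20) lower. Chmp2a and Eea1 were called here and not against WT. Chmp2a was at 96.7, 91.1 and 89.2 CPM in Cbl-/- and at 105, 112 and 106 in DKO, with no overlap (0.22, SE 0.05, adjusted p = 0.0055). Eea1 was at 197, 199 and 189 CPM in Cbl-/- and at 156, 141 and 184 in DKO, again with no overlap but with DKO 3 close to the lowest Cbl-/- library (-0.28, SE 0.08, adjusted p = 0.012). Ap2m1 (0.14, adjusted p = 0.058) and Clta (-0.06) did not pass. Between the 2 groups 12 of 39 members had no overlap, against 42.7% of all genes. With total counts for scaling 5 members were called, 1 higher and 4 lower, beside 32.4% of all genes (10.7% higher and 21.7% lower), and Vps25, Snf8, Chmp2a and Ap2s1 lost their calls. In a fit of both groups alone 5 were called as well, 3 higher and 2 lower, beside 23.9% of all genes, and Vps25, Eea1, Ap2s1 and Picalm lost theirs. Leaving out Cbl-/- 1 ended the call of Ap2s1 (adjusted p up to 0.15 over its alternatives), leaving out Cbl-/- 3 that of Snf8 (up to 0.072) and leaving out DKO 2 that of Eea1 (up to 0.058). Vps25 lost it without Cbl-/- 2, Cbl-/- 3 or DKO 2 (up to 0.12), and Picalm without Cbl-/- 1, Cbl-/- 2, DKO 1 or DKO 2 (up to 0.083).

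Set against the libraries labelled Cbl-b-/-, 7 of 39 members differed, 3 higher and 4 lower, beside 33.2% of all genes (17.7% higher and 15.6% lower). Ap2m1 (0.25, adjusted p = 0.0020), Chmp4b (0.24, adjusted p = 0.0014) and Snf8 (0.22, adjusted p = 0.025) were higher, and Eps15 (-0.31, adjusted p = 6.45e-04), Epn1 (-0.38, adjusted p = 0.0037), Picalm (-0.19, adjusted p = 0.024) and Eea1 (-0.22, adjusted p = 0.039) lower. Eea1 was at 178, 190 and 193 CPM in Cbl-b-/-, and DKO 3 at 184 lay within that range. In this comparison 11 of 39 members had no overlap, against 40.5% of all genes. With total counts for scaling 10 members were called, 2 higher and 8 lower, beside 37.5% of all genes (12.2% higher and 25.3% lower); Snf8 lost its call, and Chmp3, Clta, Ap2a2 and Dnm2 gained lower ones. In a fit of both groups alone 4 were called, 2 higher and 2 lower, beside 22.4% of all genes. The count fell to 4 without Cbl-b-/- 3, with 2 higher and 2 lower, beside 3493 of 12859 genes. It rose to 11 without DKO 2, with 8 higher and 3 lower, beside 4310 of 12869 genes. Snf8 lost its call without Cbl-b-/- 1, Cbl-b-/- 3 or DKO 3 (adjusted p up to 0.17 over its alternatives), Eea1 without Cbl-b-/- 2, Cbl-b-/- 3, DKO 1 or DKO 2 and with the replicate block (up to 0.16) and Picalm without any of the 3 Cbl-b-/- libraries, DKO 1 or DKO 2 (up to 0.11). The 3 comparisons of DKO share the DKO libraries and are not independent of each other.

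Whether DKO equals the sum of both single changes on the log2 scale was tested by the contrast WT + DKO - Cbl-/- - Cbl-b-/-, called the departure here. It passed in 2 of 39 members, 1 upward and 1 downward, beside 15.7% of all genes, 8.39% upward and 7.28% downward. Chmp4b departed by 0.26 (SE 0.07, adjusted p = 0.018), with single changes of -0.02 in Cbl-/- and 0.04 in Cbl-b-/- beside 0.28 in DKO. Eps15 departed by -0.26 (SE 0.08, adjusted p = 0.039), with single changes of -0.05 and -0.06 beside -0.37. Epn1 (-0.35, SE 0.13, adjusted p = 0.075) and Eea1 (-0.31, SE 0.11, adjusted p = 0.067) had larger values and did not pass. With total counts for scaling 0 members departed upward and 4 downward, beside 5.61% and 13.6% of all genes; Chmp4b lost its call, and Eea1, Epn1 and Picalm were called with Eps15. With the replicate block Eps15 lost its call, which left Chmp4b, beside 14.3% of all genes. Without DKO 3 the count was 7, beside 21.7% of all genes. It was 0 without WT 1, Cbl-/- 1 or Cbl-b-/- 3, beside 1471 of 12851, 1527 of 12894 and 1605 of 12859 genes. It was 1 without WT 3, Cbl-/- 2, Cbl-/- 3, Cbl-b-/- 1, Cbl-b-/- 2 or DKO 1, each time Chmp4b. Over the 12 fits that left out 1 library, 1448 to 2780 genes were called.

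Of 148 further genes of endocytosis and endosomal sorting, arranged in 6 lists, 139 were tested. In Cbl-/- 6 were higher and 7 lower (9.35%, near the 9.87% of all genes). In Cbl-b-/- 1 was higher (0.719%, beside 0.489%), and in DKO 23 were higher and 26 lower (35.3%, near 35.4%). The gene called in Cbl-b-/- was Ehd1, an ATPase of recycling endosomes (0.29).

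Genes that bind or flank the clathrin coat moved in both directions in the libraries labelled DKO, with 6 higher and 9 lower of 31 (48.4% called, beside 35.4% of all genes, 19.1% higher and 16.3% lower). The β-arrestin gene Arrb2 (-0.54) and the scaffold gene Itsn1 (-0.57) were lower, and Tfrc, the transferrin receptor carried by coated pits, was higher (0.61). In Cbl-/- 2 of these 31 were higher and 2 lower (12.9%, beside 9.87% of all genes), led by Hspa8 (0.60), the uncoating chaperone HSC70, Reps2 (-0.69) and Necap1 (-0.29). Of 10 adaptors that bind Cbl, 1 was higher and 3 lower in DKO (40%): Sh3kbp1 (0.35), which encodes CIN85, a link between Cbl and endophilin, Sorbs3 (-1.97) and Spry2 (-0.48), with Asap1, named here to complete the count, at -0.27. Sh3kbp1 was also higher in Cbl-/- (0.23), the only called gene of the 10 there (10%).

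On a list of ESCRT and associated genes outside the 39 members, 2 of 18 tested were higher and 2 lower in DKO (22.2%). The share of all genes was again 35.4%, 19.1% higher and 16.3% lower. First on this list were Mvb12b (-0.58), an ESCRT-I subunit, Cep55 (0.24), which brings ESCRT to the midbody in cell division, and Gga3 (-0.20). Cep55 was also higher in Cbl-/- (0.31), where it was the only gene of the 18 called (5.56%, beside 9.87%). Of 33 early endosome and recycling genes 3 were higher and 8 lower in DKO (33.3%, near 35.4%), with Ehd1 (0.67), Rab31 (-0.32) and Tgfbrap1 (-0.38) first. In Cbl-/- Ehd1 (0.43) was higher and Zfyve9 (-0.61) and Ehd4 (-0.17) lower (9.09% called, near 9.87%). The retromer and sorting nexin list had 6 higher and 1 lower of 20 in DKO (35%, near 35.4%), with Snx1 (0.31), Commd1 (0.34) and Snx6 (0.42) first. In Cbl-/- it had 1 lower, Washc2 (-0.25), or 5%, beside 9.87%. Of 27 late endosome and phosphoinositide kinase genes 5 were higher and 3 lower in DKO (29.6%, beside 35.4%), with Rilpl2 (0.69), Mtm1 (0.43) and Pik3r4 (-0.26) first. In Cbl-/- 1 of these was higher, Rilpl2 (0.32), and 2 were lower, Rab7b (-0.45) and Plekhm1 (-0.26), 11.1% in all, beside 9.87%.

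Against Cbl-/- 21 of the 139 genes were higher in DKO and 17 lower (27.3%, beside 29.6% of all genes). Those with the smallest adjusted p in each list were Sorbs3 (-1.36), Mvb12b (-0.47), Arrb2 (-0.39), Ehd4 (0.31), Rab7b (0.67) and Snx1 (0.28). Against Cbl-b-/- 20 were higher and 21 lower (29.5%, beside 33.2%), led in the same order of lists by Sorbs3 (-1.93), Mvb12b (-0.62), Arrb2 (-0.53), Ehd1 (0.37), Rilpl2 (0.57) and Snx1 (0.37). The departure from the sum was called in 12 of the 139 upward and 7 downward (13.7%, beside 15.7%), led by Asap1 (-0.28), Mvb12b (-0.51), Arrb1 (-0.41), Ehd4 (0.30), Rab7b (0.91) and Snx1 (0.34).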

How the data were processed

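The authors deposited whole-number read counts per gene for 12 libraries. Per the submitters' processing notes the build was GRCm38.p5, and no source used here gives the aligner, counting tool or strand setting, so reads of overlapping genes, such as Vps37b and Hip1r or Dnm2 and Tmed1, may not be separated. Every gene in the table had at least 1 count in WT 1. Members were matched by symbol through GENCODE M21 (GRCm38), which also gave positions, exon lengths and GC content.

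The counts were fitted over all 12 libraries with edgeR 4.0.16 in R 4.3.3: filterByExpr (2884 genes removed), TMM scaling, 1 mean per genotype, and the robust quasi-likelihood F test. The p-values were adjusted by the Benjamini-Hochberg method over 12671 genes (threshold 0.05, no minimum fold). The code was tested on simulated data. CPM values use the TMM factors. A gene of the macrophage marker list is not reported here. The members and lists were chosen with earlier results of these data known. Members given with the value of every library compared were, in each comparison, up to 8 called members with the smallest adjusted p, or the 2 with the smallest p where none was called; Vps25 is also given in full against WT. Of each further list up to 3 called genes are named by log2 fold change, and only the first of each list in the departure and between DKO and the single knockouts. Alternatives used DESeq2 1.42.0, limma 3.58.1, other scalings and filters, a replicate block, only the groups compared, each library left out, and, added after seeing the data, a GC correction. Replicates of 1 genotype differed by more than sampling noise (chi-square per degree of freedom 3.93 to 55.3 over 12 pairs).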

Additional observations from a re-analysis of the deposited data

Results flagged for a closer look

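In 2 members the level labelled DKO differed from what both single changes add up to, by the tested contrast. Chmp4b departed upward by 0.261 on the log2 scale (edgeR adjusted p = 0.018), and the call held in 17 of 21 alternatives, with values from 0.15 to 0.29. It was lost with total counts for scaling and without WT 1, Cbl-/- 1 or Cbl-b-/- 3 (adjusted p up to 0.16). Eps15 departed downward, with -0.264 (edgeR adjusted p = 0.039). Its call held in 10 of 21 alternatives, with values from -0.38 to -0.22, and was lost with the replicate block and on leaving out any library other than WT 2 and DKO 3 (adjusted p up to 0.11).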

How the results depend on the processing

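No member's called value changed sign under any alternative run. With total counts for scaling 5 members were called in DKO against Cbl-/-, beside 32.4% of all genes. In the departure from the sum 4 were called, beside 19.2%, and there the median of all genes moved to -0.11. The share of higher genes among those called was then 33.1%, 32.5% and 29.3% in DKO against Cbl-/-, in DKO against Cbl-b-/- and in the departure. With DESeq2 the departure had 4 members, beside 2307 of 12671 genes, and Cbl-b-/- against WT had 145 genes. With only the compared groups fitted, 4 members were called in Cbl-/- against WT, beside 22.5% of all genes. In DKO against WT 5 were called, beside 28.7%. The count was 5 in DKO against Cbl-/- and 4 in DKO against Cbl-b-/-, beside 23.9% and 22.4%. Genes called were 2753 in Cbl-/- against WT and 2760 in DKO against Cbl-b-/-. The GC correction gave 2, 16 and 5 members (Cbl-/-, DKO against WT, departure), beside 15.4%, 42.6% and 22.6% of all genes. In genes it gave 1948 and 138 (Cbl-/-, Cbl-b-/-). With the replicate block added it gave 2, 16 and 5 members, beside 1901, 5271 and 2784 of 12671 genes. Genes called in Cbl-b-/- were then 128.

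Same-numbered libraries did not deviate together (r -0.054 to 0.052 over 18 pairs, 0 over 0.1). In 14 of 36 cases a library correlated best with its own number. The counts thus show no pairing by number, but cannot tell whether same-numbered libraries were handled together. The replicate block gave 1 member in the departure, where Eps15 lost its call, beside 14.3% of all genes. It ended the calls of Vps25 in DKO against WT (edgeR adjusted p = 0.054) and of Eea1 in DKO against Cbl-b-/- (edgeR adjusted p = 0.054). This left 8 and 6 members, beside 33.8% and 31.7% of all genes.

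Leaving out 1 library at a time gave, in members, 0 to 0 in Cbl-/-, 0 to 0 in Cbl-b-/-, 6 to 15 in DKO against WT, 7 to 10 against Cbl-/-, 4 to 11 against Cbl-b-/- and 0 to 7 in the departure. In genes it gave 733 to 978, 35 to 75, 3355 to 4797, 2855 to 4332, 3493 to 4543 and 1448 to 2780 in the same order. Counting error alone, from the members' counts, was 0.586% to 3.92% of the level, and in 136 of 156 combinations of member and genotype the spread between the 3 libraries was larger than it.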
